A study of Mus musculus with 6 samples.

Results

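The genes described here are 49 members of the WNT signalling pathway in mouse tongue epithelium, out of 55421 genes in the deposited expression table. They were chosen by gene symbol as WNT ligands, receptors, inhibitors, TCF/LEF transcription factors and feedback targets, with earlier results of the same KO and WT comparison known, so the KO and WT values of the members describe them and are no test of the choice. All 49 were in the table, and 40 passed the filter on low values, a normalised read count of at least 10 in at least 3 libraries. Tongue mucosa was taken from 3 knockout mice (KO; K14CreERT2 IRE1 F/F) and 3 littermates with the floxed alleles alone (WT; IRE1F/F). IRE1α, encoded by Ern1, is a sensor of the unfolded protein response. The keratin 14 promoter drives the tamoxifen-inducible Cre in basal keratinocytes, so cells of the mucosa that do not descend from them are not targeted. How far the deletion had reached among their descendants was not tested. Mice of both genotypes carried floxed alleles and received tamoxifen on 4 consecutive days, with harvest on day 5. The labels used here give no age, and a separate control for Cre without floxed alleles was not analysed here. The mucosa was peeled off after enzyme injection under the epithelium, and libraries were made with QuantSeq, a 3′ mRNA-Seq kit that sequences the 3′ end of each mRNA next to its poly(A) tail.

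WNT ligands are secreted proteins that are lipid-modified by Porcn and carried to the cell surface by Wls. In the canonical branch they bind a Frizzled receptor together with Lrp5 or Lrp6, which stops the destruction complex of Axin, Apc and Gsk3b from marking β-catenin for degradation, and β-catenin then enters the nucleus and acts with TCF/LEF factors on target genes. In the tongue this signalling is known for its part in the formation of fungiform papillae and in the upkeep of taste buds, and in hair follicles Lef1 acts in the precursors of the hair shaft.

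The libraries held between 4606309 and 6286153 reads assigned to genes, and 3 reads in a library, the limit that a count of 0 allows, corresponded to 2.59 to 3.92 normalised read counts. These limits, like all counting limits here, cover counting error only. Basal keratinocyte markers summed to 36389 to 63175 normalised read counts in KO and 25654 to 27832 in WT, and suprabasal markers to 435530 to 676971 in KO and 442106 to 628436 in WT, so the keratinocyte label was met in all 6 libraries. The basal sum was mostly Krt14 and Krt5, and the list went both ways. Of its 7 genes, 4 were higher in KO without overlap (Krt5, Krt14, Itga6 and Itgb4) and 2 lower (Krt15 and Trp63), beside 9.84% and 9.25% of all genes. Limma called Itgb4 alone (adjusted p = 0.0194), beside 1.22% of all genes called higher. DESeq2 called 4 higher and 1 lower, beside 1.97% and 1.38%. Krt15 averaged 2516 ± 1310 in KO and 5392 ± 705 in WT (SD, n = 3 each). Trp63 averaged 465 ± 68.3 in KO and 695 ± 96.0 in WT. Neither Krt15 nor Trp63 passed the limma test (adjusted p = 0.123 and 0.170). Skeletal muscle markers were present as well, at 1109 to 3557 in KO, highest in KO replicate 1, and 855 to 1084 in WT, with Acta1 and Tnnc2 listed at 0. Tpm2 made up most of that sum except in KO replicate 1, with 1606, 1020 and 945 in KO and 740, 776 and 893 in WT. Of the 6 muscle markers tested, Tpm2 alone did not overlap between the genotypes, the other 5 overlapped, and none was called. Ern1 itself had 78.0, 117 and 123 normalised read counts in KO and 102, 105 and 77.1 in WT (log2 fold change 0.15, SE 0.24, limma adjusted p = 0.847). A 3′ tag reads the end of the transcript and does not check the deletion unless the deleted part includes it, so the genotypes rest on the labels.

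The TCF/LEF family holds Lef1, the member with the smallest p between the genotypes, and the start regions of Lef1, Tcf7l1 and Tcf7l2 are shown so that a gene that fell in KO can be set beside family members that did not pass the test. The sequences are RefSeq promoter windows on GRCm38.p6, written on the gene's own strand from 250 bases before to 50 after the most upstream listed start. Capitals mark a match to CTTTGA or CTTTGT, the 6-letter words at the core of the TCF/LEF motif, searched on both strands.
Lef1, chr3:131110047-131110346, plus strand: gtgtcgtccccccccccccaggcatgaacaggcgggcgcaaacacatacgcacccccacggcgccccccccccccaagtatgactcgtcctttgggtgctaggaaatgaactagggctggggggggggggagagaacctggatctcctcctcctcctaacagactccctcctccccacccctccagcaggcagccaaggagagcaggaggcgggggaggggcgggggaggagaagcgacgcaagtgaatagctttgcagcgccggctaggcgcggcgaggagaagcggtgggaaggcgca
Tcf7l1, chr6:72788996-72789295, minus strand: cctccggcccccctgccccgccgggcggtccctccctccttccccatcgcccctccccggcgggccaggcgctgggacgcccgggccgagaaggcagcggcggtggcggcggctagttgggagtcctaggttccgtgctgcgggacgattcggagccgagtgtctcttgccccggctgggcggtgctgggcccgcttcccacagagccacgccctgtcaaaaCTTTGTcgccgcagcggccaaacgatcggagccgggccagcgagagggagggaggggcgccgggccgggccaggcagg
Tcf7l2, chr19:55741560-55741859, plus strand: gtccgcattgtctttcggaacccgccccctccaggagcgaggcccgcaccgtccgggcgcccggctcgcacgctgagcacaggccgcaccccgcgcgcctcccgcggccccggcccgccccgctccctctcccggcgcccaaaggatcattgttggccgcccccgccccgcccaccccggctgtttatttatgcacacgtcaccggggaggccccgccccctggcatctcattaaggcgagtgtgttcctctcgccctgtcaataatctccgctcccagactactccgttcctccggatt
The Tcf7l1 window held 1 match, CTTTGT, at -28 from the start, and the other two windows held none of these letters. The windows were rich in G and C, at 67.3% for Lef1, 75.3% for Tcf7l1 and 70% for Tcf7l2, against a median of 52.7% over the most upstream windows of 27025 genes. Of those 27025 windows, 31.3% held at least 1 match. A promoter window was found for 31 of the 49 members, and 7 of the 31 held a match (22.6%), those of Dkk1, Fzd1, Fzd7, Gsk3b, Tcf7l1, Wnt11 and Wnt3. The letters describe the windows and do not show binding, and Lef1 and Tcf7l2 have further listed starts whose windows are not printed.

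Among the 40 tested members, Lef1 and Sfrp1 fell in KO and none rose by limma on log2(value + 1) at an adjusted p under 0.05 over all genes tested. Over all 10987 genes tested, 0.583% were called lower in KO and 1.22% higher. At an unadjusted p under 0.05, 6 members were lower in KO and 1 was higher, beside 6.84% and 6.68% of all genes. On recovered read counts, edgeR's quasi-likelihood test called 1 member lower and 0 higher, beside 0.592% and 1.14% of all genes, and DESeq2 called 2 lower and 0 higher, beside 1.38% and 1.97%. In 6 members every KO library was below every WT library (Lef1, Sfrp1, Lrp5, Lgr4, Tcf7l2 and Fzd3), and in 2 every KO library was above (Sostdc1 and Gsk3b), beside 9.25% and 9.84% of all genes (19.1% in either direction). The other 32 members overlapped between the genotypes. The median log2 fold change was -0.18 over the tested members and -0.0083 over all tested genes, with members between -1.30 and 1.11. Since the members were chosen with this comparison known, nothing is read from these shares. Fold changes throughout are KO over WT on log2(value + 1), where the changes of low genes come out too small. The limma p-values set the difference between the genotypes against the spread between mice within them. That spread is pooled over both genotypes and moderated over genes by an intensity trend.

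**Figure D1:**
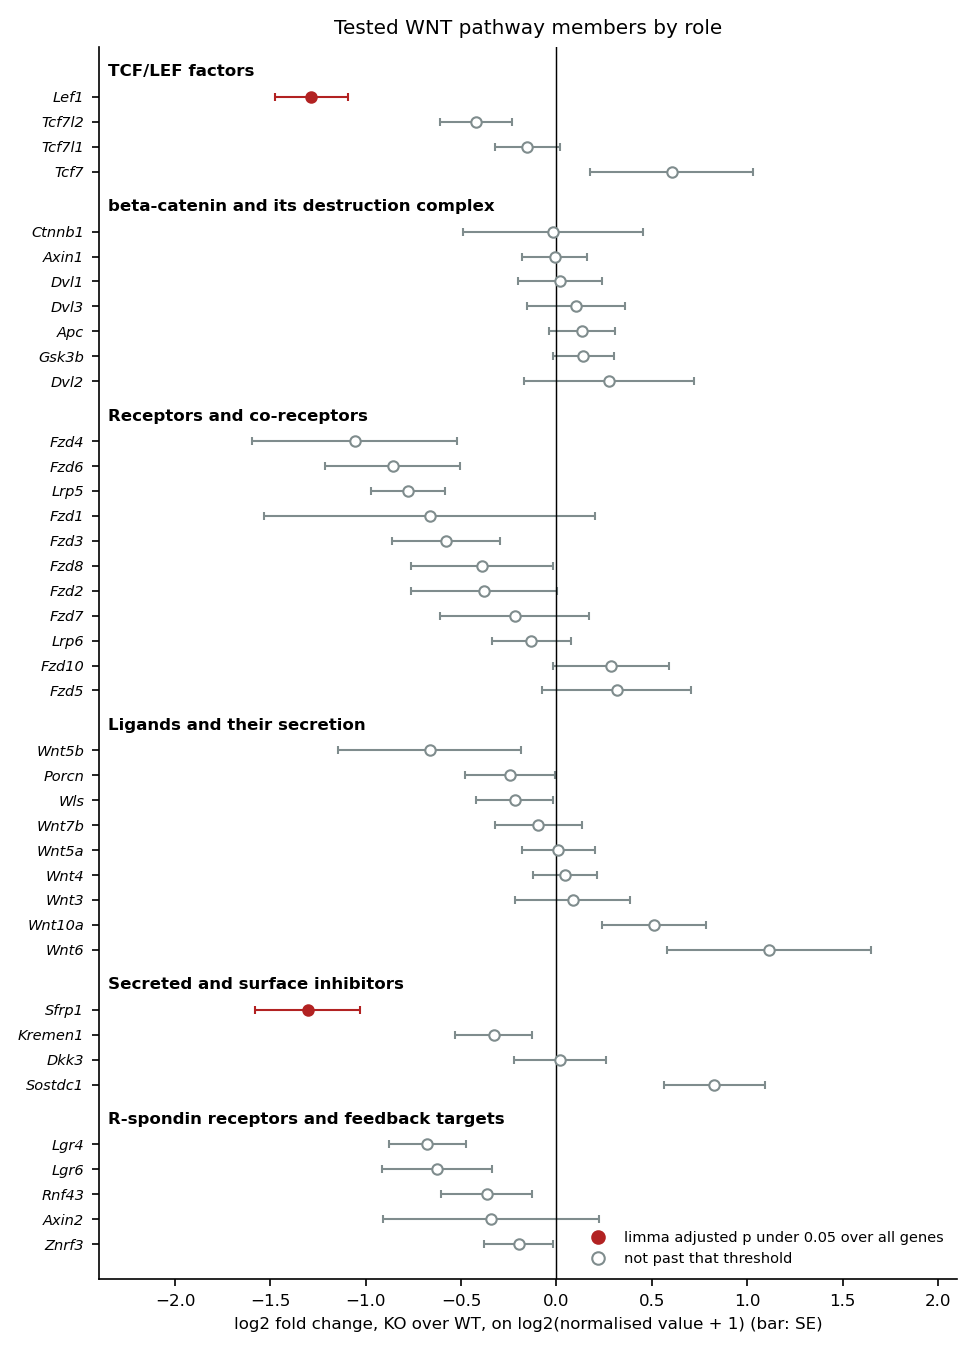
Log2 fold change, KO over WT, of the 40 tested WNT pathway members (horizontal axis, bars are the SE), grouped by role, with filled points where the limma adjusted p over all genes was under 0.05. Lef1 and Sfrp1 are the filled points, at -1.28 and -1.30, and the destruction complex lies near 0.

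Lef1, the TCF/LEF factor known from hair shaft precursors and from lymphocytes, had 61.8, 57.7 and 71.5 normalised read counts in KO mice and 170, 147 and 151 in WT mice. The highest KO value was well under the lowest WT value, and each genotype varied little, at 63.7 ± 7.06 in KO and 156 ± 11.8 in WT (SD, n = 3 each). The log2 fold change was -1.28 (SE 0.19, limma adjusted p = 0.00838), a KO mean of 0.408 of the WT mean. Lef1 (ENSMUSG00000027985) lies on chromosome 3 at 131110471 to 131224356, plus strand, in GENCODE M21 on GRCm38. The authors' deposited table gives Lef1 a log2 fold change of -1.30 (SE 0.27, adjusted p = 0.000241). Leaving out any 1 library kept the log2 fold change between -1.37 and -1.22, with limma adjusted p between 0.0194 and 0.0414. In bulk tissue, fewer cells that express a gene and less RNA of it per cell cannot be told apart, here and for every gene below.

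T cells are another source of Lef1 and Tcf7. The 16 T cell markers summed to 112 to 134 normalised read counts in KO and 47.1 to 121 in WT, and 3 of them could be tested. Trbc2, a T cell receptor constant segment, rose in KO (80.2, 84.5 and 71.5 in KO, 12.3, 20.1 and 23.5 in WT, log2 fold change 2.07, SE 0.29, limma adjusted p = 0.00601). Without Trbc2 the sums were 41.0 to 52.0 in KO and 32.6 to 101 in WT, and Trdc was at 0 in every library. The ranges of these sums overlapped between the genotypes, and 13 of the 16 markers were under the filter on low values. The part of T cells in Lef1's level was not tested.

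The other TCF/LEF factors did not pass the test. Tcf7l2, the main effector of canonical signalling in gut epithelium, had 181, 149 and 178 normalised read counts in KO and 260, 229 and 195 in WT. Its groups did not overlap, but KO replicate 1 and WT replicate 3 lay close together (log2 fold change -0.42, SE 0.19, limma adjusted p = 0.362). Tcf7l1, known as a repressor of target genes in skin stem cells, had 313, 270 and 304 in KO and 292, 359 and 337 in WT (log2 fold change -0.15, SE 0.17, limma adjusted p = 0.772). Tcf7 was low, at 21.7, 29.3 and 24.8 in KO and 20.7, 25.3 and 7.84 in WT, with WT replicate 3 below the other 5 libraries. Values for Tcf7 and Tcf7l1 complete the family and were chosen after they were seen. Of the 4 factors, Lef1 alone was called. Whether its log2 fold change differs from those of the other factors was not tested.

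**Figure D2:**
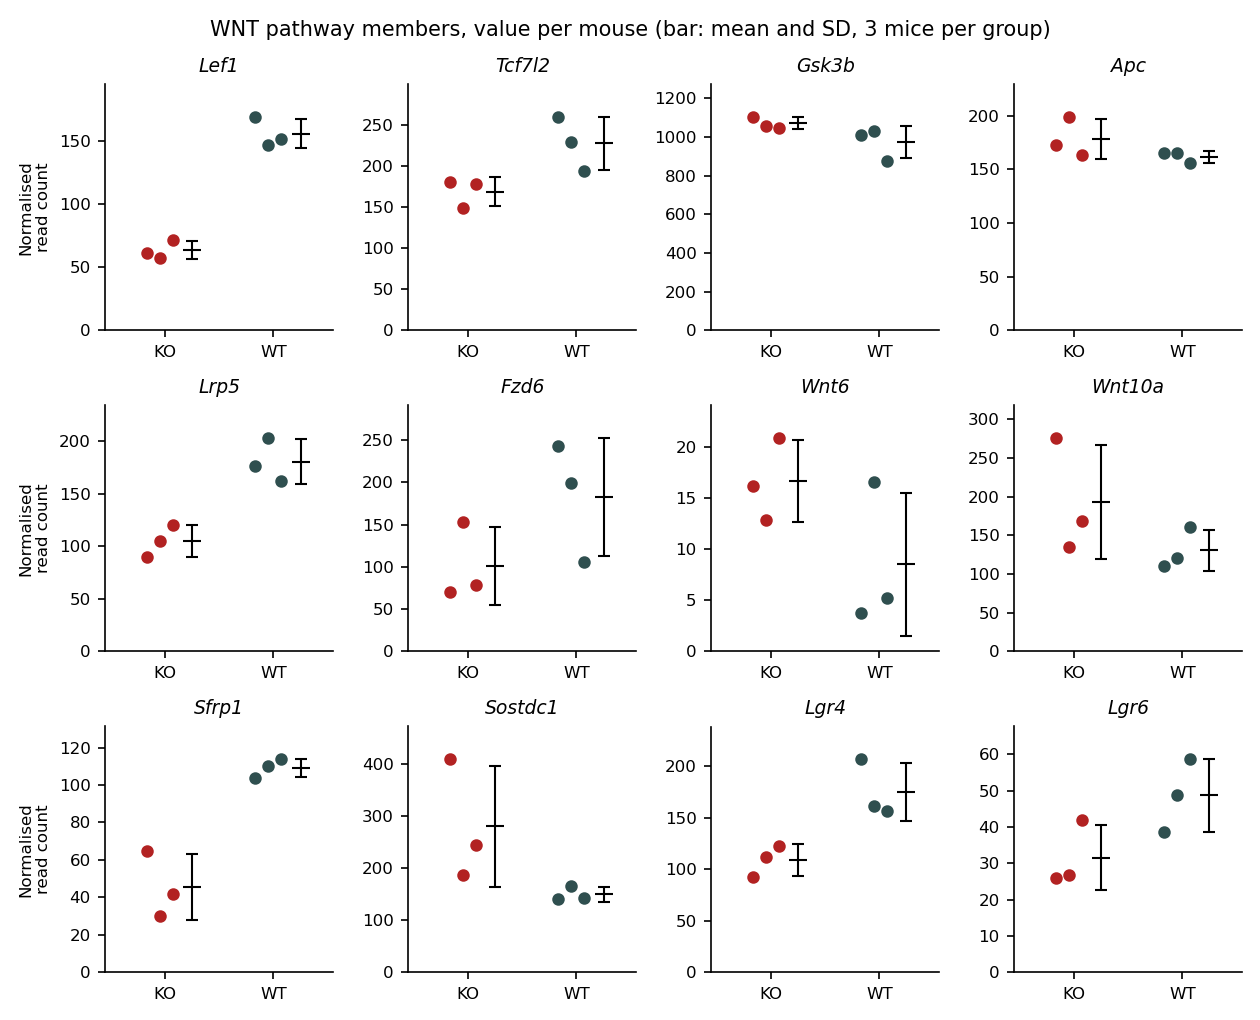
Normalised read count (vertical axis, linear from 0) of 12 WNT pathway members in each mouse, KO left and WT right, with the mean and SD of 3 mice per genotype. Lef1, Sfrp1, Lrp5, Lgr4 and Tcf7l2 have every KO point below every WT point, and Sostdc1 and Gsk3b every KO point above.

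The destruction complex and the Dishevelled proteins, which act between the receptor and β-catenin, held no called member. None of the 7 had an unadjusted p under 0.05, and their log2 fold changes lay between -0.02 and 0.27. Gsk3b, the kinase that marks β-catenin, had 1106, 1059 and 1047 normalised read counts in KO and 1013, 1030 and 878 in WT (log2 fold change 0.14, SE 0.16, limma adjusted p = 0.778). Every KO value was above every WT value, but KO replicate 3 exceeded WT replicate 2 by little. Apc, a scaffold of the complex, had 172, 199 and 163 in KO and 165, 165 and 155 in WT, which overlapped (log2 fold change 0.13, SE 0.18, limma adjusted p = 0.808). The scaffold Axin1 averaged 203 ± 16.9 in KO and 204 ± 12.1 in WT. Among the Dishevelled genes, which relay the receptor signal to the complex, Dvl1 averaged 77.9 ± 16.8 in KO and 76.0 ± 5.78 in WT (SD, n = 3 each), and Dvl3 averaged 111 ± 20.7 in KO and 106 ± 29.8 in WT.

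Ctnnb1, which encodes β-catenin, had 8.67, 16.4 and 7.62 normalised read counts in KO and 6.60, 13.1 and 13.1 in WT. Ctnnb1 and Dvl2 are given by library after their values were seen. The Ctnnb1 levels are low, near the filter's minimum of 10, and the groups overlapped (log2 fold change -0.02, SE 0.47). Exons of Ulk4 on the opposite strand cover bases within the last 500 bases of Ctnnb1 in GENCODE M21, near where a 3′ tag falls. The strand setting of the counting is not given in the sources used here, and the part of this overlap in Ctnnb1's low values was not tested. The end of Dvl2 likewise lies over exons of Acadvl on the opposite strand and over Mir324 on its own strand, and Dvl2 had 54.2, 14.7 and 21.9 in KO and 17.0, 20.9 and 27.4 in WT, so KO replicate 1 was far above the rest. Dvl1 (over Tas1r3), Sfrp2 (over Gm26771) and Wnt11 (over Gm8398) were the other members with an exon of another gene there, 5 of 49 in all, and their values are uncertain for that reason.

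No receptor was called. Of 11 tested Frizzled and Lrp genes, 9 had a negative log2 fold change, beside 5593 of the 10987 genes tested, and their median was -0.39. At an unadjusted p under 0.05, 2 were lower in KO, beside 6.84% of all genes. The members were chosen with this comparison known, so nothing is read from these counts. Lrp5, the co-receptor of canonical signalling, had 89.9, 105 and 120 normalised read counts in KO and 176, 203 and 162 in WT. All KO mice lay below all WT mice (log2 fold change -0.78, SE 0.20, limma adjusted p = 0.0877, edgeR 0.0759, DESeq2 0.0584). Its paralog Lrp6 averaged 130 ± 15.6 in KO and 144 ± 27.2 in WT (SD, n = 3 each), and the difference between the paralogs was not tested.

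Fzd6, a Frizzled known for planar cell polarity in skin and hair, had 70.4, 153 and 78.1 normalised read counts in KO and 243, 199 and 106 in WT. KO replicate 2 was above WT replicate 3, so the groups overlapped (log2 fold change -0.86, SE 0.35, limma adjusted p = 0.315). Fzd3, which also acts in planar cell polarity and was chosen after its values were seen, had 34.7, 69.8 and 66.7 in KO and 86.7, 86.4 and 73.1 in WT (log2 fold change -0.58, SE 0.28, limma adjusted p = 0.414). The libraries of KO replicate 1 and WT replicates 1 and 2 carry names of one form and the other 3 names of another, which the labels do not explain. Within the first form the KO minus WT difference of Fzd6 was -1.63 and within the other 0.05 on the log2 scale, and for Fzd3 -1.30 and -0.10. The same differences were -1.34 and -1.22 for Lef1, -0.71 and -1.65 for Sfrp1, and 1.25 and -0.09 for Wnt10a. KO replicate 1 is the only KO mouse of the first form and WT replicate 3 the only WT mouse of the other. Each difference thus rests on 1 mouse on one side, and an effect of the name form was not tested by it.

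The receptor values differed between the WT mice. WT replicate 1 had the highest value of the 6 libraries in 7 of the 11 receptors, and in 14 of the 40 tested members. WT replicate 3 had the lowest value in 4 of the 11 receptors and in 11 of the 40 members. The same shares over all genes were not computed, so these counts are not read as a trait of the WNT genes. Mean receptor levels relative to the WT mean of each gene were -0.42, -0.22 and -0.57 in KO replicates 1 to 3 and 0.44, 0.07 and -0.51 in WT replicates 1 to 3 on the log2 scale, so WT replicate 3 lay among the KO mice. Fzd1, a broadly acting Frizzled, was highest in WT replicate 1 and lowest in WT replicate 3. It had 7.58, 31.0 and 7.62 normalised read counts in KO and 74.5, 24.4 and 3.92 in WT. It was chosen after its values were seen. Fzd2, Fzd4, Fzd5, Fzd7, Fzd8 and Fzd10, also Frizzled receptors, were low, between 5.17 and 56.9 normalised read counts in KO and 10.4 and 70.7 in WT. Fzd4 had the most negative log2 fold change of the receptors, -1.06 (SE 0.54, limma adjusted p = 0.435), and Fzd5 and Fzd10 had positive ones of 0.31 and 0.29.

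**Figure D3:**
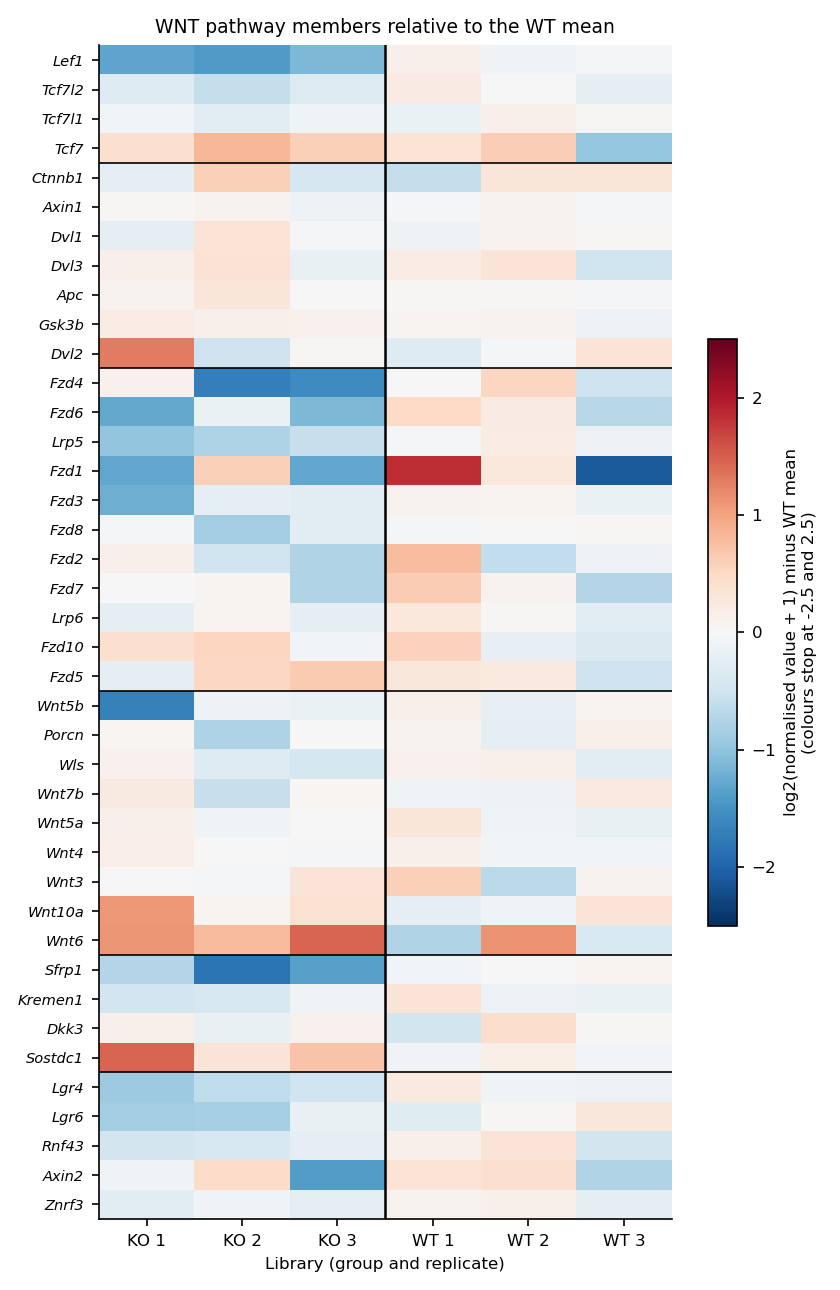
Value of each tested member in each library as log2(normalised value + 1) minus the mean of the WT libraries (colour, from -2.10 to 1.84 with colour limits at -2.5 and 2.5), with the KO libraries left of the line and the WT libraries right, and roles separated by horizontal lines. Lef1 and Sfrp1 are below the WT mean in all 3 KO libraries, and many receptors are highest in WT replicate 1.

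No ligand passed the test. None of the 9 tested ligand and secretion genes had an unadjusted p under 0.05, and their median log2 fold change was 0.01. Wnt4, a ligand of the non-canonical and canonical branches, averaged 1882 ± 155 normalised read counts in KO and 1823 ± 143 in WT, and Wnt7b, a canonical ligand of epithelia, averaged 1452 ± 392 in KO and 1523 ± 238 in WT (SD, n = 3 each). Wnt5a, the best known non-canonical ligand, averaged 191 ± 14.2 in KO and 192 ± 36.7 in WT, and Wnt3 averaged 84.0 ± 12.3 in KO and 83.7 ± 34.9 in WT. The acyltransferase Porcn averaged 430 ± 123 in KO and 497 ± 68.3 in WT, and the carrier Wls averaged 288 ± 58.8 in KO and 334 ± 51.6 in WT.

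Of the ligands, Wnt6 and Wnt10a had the smallest p-values. Wnt6, a canonical ligand of surface epithelium, had 16.3, 12.9 and 21.0 normalised read counts in KO and 3.77, 16.6 and 5.22 in WT. The counts are low and WT replicate 2 lay within the KO range (log2 fold change 1.11, SE 0.53, limma adjusted p = 0.401). Wnt10a, whose loss in humans and mice affects teeth, hair and tongue papillae, had 276, 134 and 169 in KO and 110, 121 and 161 in WT. KO replicate 1 was far above the other 5 libraries (log2 fold change 0.51, SE 0.27, limma adjusted p = 0.458). Wnt5b, a non-canonical ligand, averaged 11.1 ± 5.86 in KO and 16.3 ± 2.06 in WT (SD, n = 3 each).

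Among the inhibitors, 1 fell in KO and 1 had higher values that did not pass the test. Sfrp1, a secreted protein that binds WNT ligands, had 65.0, 30.2 and 41.9 normalised read counts in KO and 104, 110 and 114 in WT. The WT mice were close to each other and all above the KO mice, which spread over 45.7 ± 17.7, against 109 ± 5.03 in WT (SD, n = 3 each). The log2 fold change was -1.30 (SE 0.28, limma adjusted p = 0.0432), and the authors' deposited table gives -1.26 (SE 0.33, adjusted p = 0.00873). Sfrp1 (ENSMUSG00000031548) lies on chromosome 8 at 23411502 to 23449632, plus strand. The call was lost by edgeR (adjusted p = 0.0508), with the form of the library names in the limma fit (0.117) and with equal library totals (0.0506). Leaving out any 1 library other than KO replicate 1 ended the call, with limma adjusted p between 0.0288 and 0.158 over the 6 fits.

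Fibroblasts of the underlying tissue are known to express Sfrp1, and their markers did not move as a set. Of the 10 fibroblast markers, 4 could be tested, with 2 negative and 2 positive log2 fold changes. Dcn alone was called, and the other 3 overlapped between the genotypes. The 10 fibroblast markers summed to 252 to 1160 normalised read counts in KO and 1429 to 1969 in WT, of which Dcn made up most in WT and in KO replicates 2 and 3 but less than the other markers together in KO replicate 1. Dcn fell in KO (530, 195 and 544 in KO, 1658, 1329 and 1856 in WT, log2 fold change -2.06, SE 0.35, limma adjusted p = 0.0152). Without Dcn the sums were 56.9 to 631 in KO, highest in KO replicate 1, and 100 to 114 in WT, and Dpt was at 0 in every library. With the mean of the 4 tested markers as a covariate, the number of members called lower in KO stayed at 2. Since those markers had log2 fold changes of both signs, the covariate is no measure of fibroblast content. The part of fibroblasts in Sfrp1's level was not tested.

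Sostdc1, a secreted inhibitor of WNT and BMP signalling known from tooth and hair placodes, had 411, 187 and 245 normalised read counts in KO and 141, 166 and 142 in WT. All KO mice lay above all WT mice, with KO replicate 1 far above the rest (log2 fold change 0.83, SE 0.26, limma adjusted p = 0.177, DESeq2 0.0575). Kremen1, a receptor for Dickkopf proteins, averaged 152 ± 21.3 in KO and 192 ± 38.2 in WT, and the Dickkopf relative Dkk3 averaged 149 ± 17.3 in KO and 151 ± 46.3 in WT (SD, n = 3 each). KO replicate 1, which had the highest Sostdc1 and Wnt10a, also had the highest sum of skeletal muscle markers, 3557 against 855 to 1342 in the other 5 libraries, and the part of this in either gene was not tested.

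None of the 5 tested R-spondin receptors and feedback genes was called. All 5 had a negative log2 fold change, with a median of -0.37, beside 5593 of the 10987 genes tested, and nothing is read from these signs either. Lgr4, a receptor for R-spondins, which strengthen WNT signalling, had 92.1, 112 and 123 normalised read counts in KO and 207, 161 and 157 in WT. The groups did not overlap (log2 fold change -0.68, SE 0.20, limma adjusted p = 0.146). Lgr6, a relative known from skin and taste progenitors, had 26.0, 26.7 and 41.9 in KO and 38.6, 48.9 and 58.8 in WT, with KO replicate 3 above WT replicate 1 (log2 fold change -0.63, SE 0.29, limma adjusted p = 0.377). The ubiquitin ligases Rnf43 and Znrf3, which remove Frizzled receptors from the surface, averaged 73.6 ± 5.66 and 159 ± 11.5 in KO and 97.5 ± 25.7 and 184 ± 23.5 in WT (SD, n = 3 each). Axin2, the best known feedback target, was low, with 10.8, 16.4 and 3.81 in KO and 15.1, 15.7 and 6.53 in WT. The groups overlapped, and the log2 fold change of -0.34 was smaller than its SE of 0.57 (limma adjusted p = 0.853). Its values were chosen after they were seen.

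The 9 members under the filter were Wnt7a, Wnt10b, Wnt11, Dkk1, Sfrp2, Wif1, Lgr5, Nkd1 and Nkd2. Dkk1, a secreted inhibitor of Lrp5 and Lrp6, was at 0 in all 6 libraries. Wnt7a, named like the rest of this group after its values were seen, had 1.08, 2.59 and 1.91 normalised read counts in KO, 6 reads in all, and 0 in each WT library, all of which is within what a count of 0 allows. The inhibitor Wif1 had 7 reads over the KO libraries and 16 over the WT libraries, and the stem cell receptor Lgr5 had 27 in KO and 23 in WT. Wnt10b, Wnt11, Sfrp2, Nkd1 and Nkd2 had between 1 and 13 reads per genotype.

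The rest of the pathway was described from 112 further symbols, listed from general knowledge of the pathway and not for how they moved, though earlier results were known when the list was made. Of these, 109 were in the table and 69 were tested. Sox9 and Ccnd1 rose in KO, Tnfrsf19 fell, and 66 did not pass the test, with a median log2 fold change of -0.03. At an unadjusted p under 0.05, 6 were higher and 3 lower in KO, beside 6.68% and 6.84% of all genes, and the 2 called higher and 1 called lower stand beside 1.22% and 0.583%. All 3 called genes came from the list of known transcriptional targets, of which 15 of 26 could be tested, with a median log2 fold change of -0.34. The targets called therefore lay in both directions.

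Sox9, a transcription factor of hair follicle and other stem cells and a WNT target in the gut, had 408, 614 and 449 normalised read counts in KO and 107, 126 and 137 in WT. The groups were far apart (log2 fold change 1.97, SE 0.20, limma adjusted p = 0.00115). Ccnd1, which encodes cyclin D1 of the G1 phase, had 444, 250 and 216 in KO and 68.8, 94.2 and 78.4 in WT, with KO replicate 1 highest (log2 fold change 1.84, SE 0.27, limma adjusted p = 0.00773). Both kept their calls when any 1 library was left out. Tnfrsf19, also known as Troy, a target in intestinal stem cells, had 69.3, 68.1 and 69.6 in KO and 139, 133 and 112 in WT (log2 fold change -0.87, SE 0.19, limma adjusted p = 0.0498). Its call was lost in each of the 6 fits that left out 1 library, at adjusted p between 0.0560 and 0.195.

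**Figure D4:**
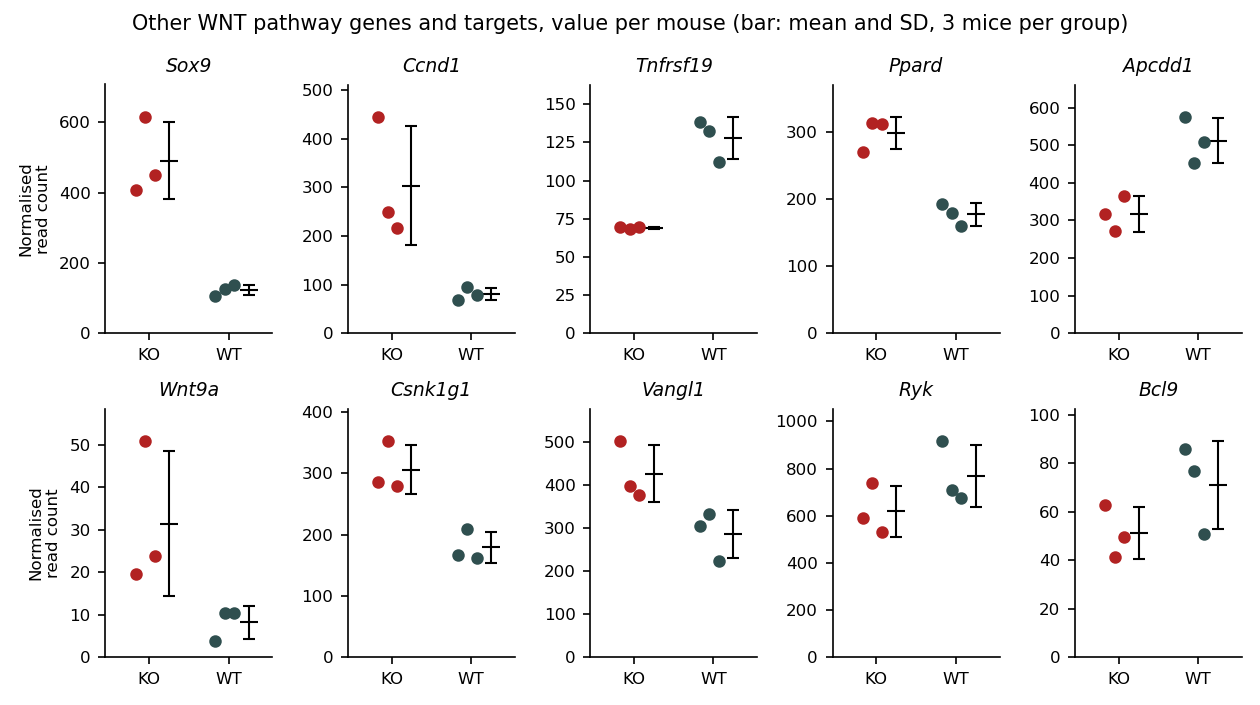
Normalised read count (vertical axis, linear from 0) of 10 WNT pathway genes and targets outside the 49 members in each mouse, KO left and WT right, with the mean and SD of 3 mice per genotype. Sox9 and Ccnd1 lie above all WT mice in every KO mouse, and Tnfrsf19 lies below.

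A group of 3 genes from the lists missed the limma threshold and were called by DESeq2 alone. Wnt9a, a ligand, had 19.5, 50.8 and 23.8 normalised read counts in KO and 3.77, 10.5 and 10.4 in WT (log2 fold change 1.80, SE 0.49, limma adjusted p = 0.110, DESeq2 0.0275). Csnk1g1, a casein kinase, had 286, 352 and 279 in KO and 167, 209 and 162 in WT (log2 fold change 0.77, SE 0.19, limma adjusted p = 0.0771, DESeq2 0.0360). Ppard, a nuclear receptor described as a target, was named after its values were seen and had 271, 313 and 312 in KO and 192, 180 and 159 in WT (log2 fold change 0.75, SE 0.17, limma adjusted p = 0.0627, DESeq2 0.0307). In all 3 genes every KO value was above every WT value. Of the 69 further genes tested, 9 were higher in KO without overlap and 6 lower, beside 9.84% and 9.25% of all genes. DESeq2 called 5 of the 69 higher and 1 lower, beside 1.97% and 1.38% of all genes. Nothing is read from these shares.

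Apcdd1, a membrane-bound WNT inhibitor known from hair follicles, had 316, 271 and 366 normalised read counts in KO and 575, 453 and 509 in WT (log2 fold change -0.69, SE 0.18, limma adjusted p = 0.0977). Vangl1, a core gene of planar cell polarity, had 503, 399 and 378 in KO and 304, 332 and 225 in WT (log2 fold change 0.58, SE 0.20, limma adjusted p = 0.220). Neither pair of groups overlapped, beside 19.1% of all genes without overlap in either direction, and neither gene passed the test. The receptor Ryk (log2 fold change -0.31, limma adjusted p = 0.549) and the β-catenin cofactor Bcl9 (log2 fold change -0.45, limma adjusted p = 0.521) had the smallest p of their lists. The authors' deposited table of 341 called genes, 142 lower and 199 higher in KO, holds 2 of the 49 members, Lef1 and Sfrp1, and 5 of the further genes, Sox9, Ccnd1, Ppard, Csnk1g1 and Tnfrsf19.

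**Figure D5:**
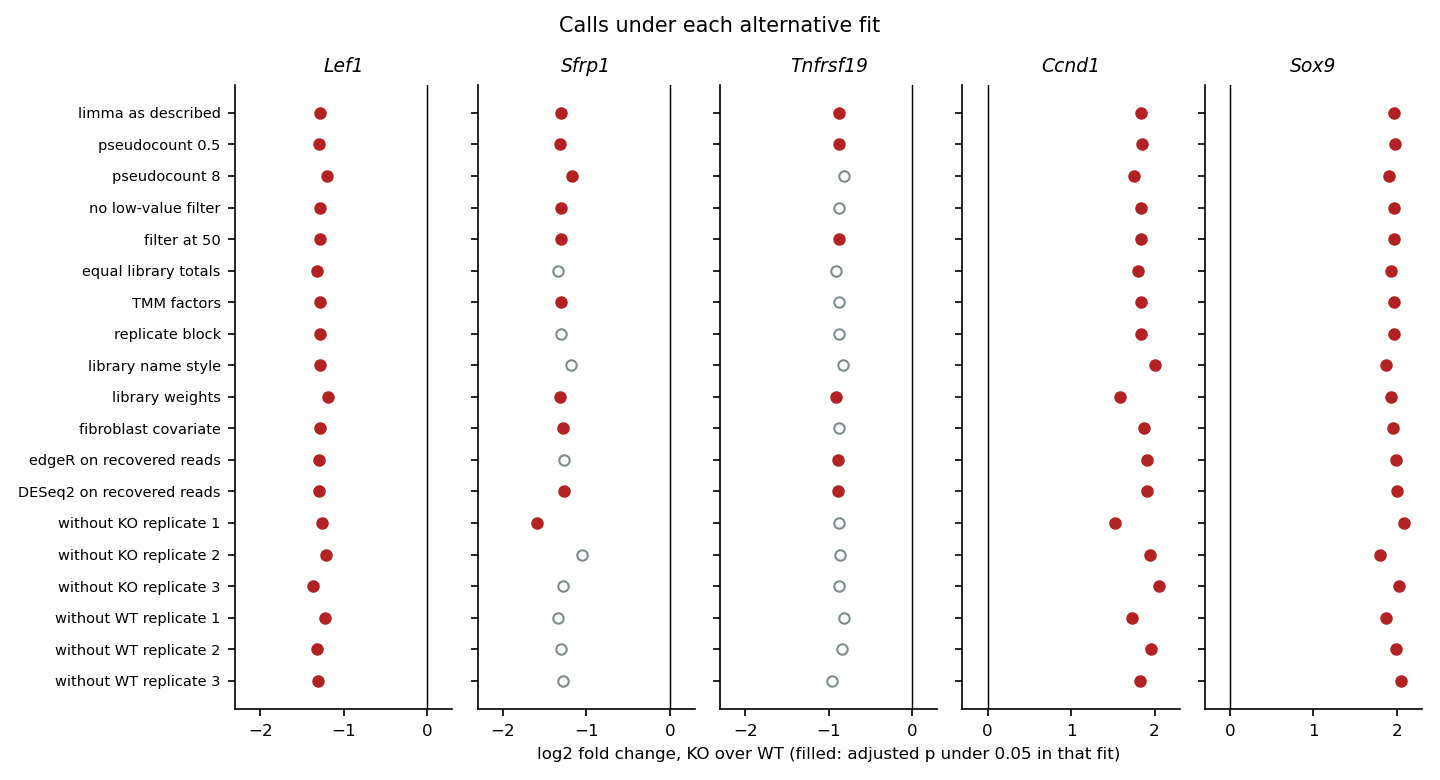
Log2 fold change, KO over WT (horizontal axis), of Lef1, Sfrp1, Tnfrsf19, Ccnd1 and Sox9 in the fit as described and in each alternative fit (rows), with filled points where the adjusted p of that fit was under 0.05. Lef1, Ccnd1 and Sox9 are filled in every row, while Sfrp1 and Tnfrsf19 lose the call in several rows with their direction kept.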

How the data were processed

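Tongue epithelium of 3 KO and 3 WT mice was profiled by 3′ mRNA-Seq. Groups were taken from the sample titles. The authors deposited a normalised read count per gene and library, a signal on a linear scale per the file headers. The submitters' processing notes name FastQC, STAR, featureCounts and DESeq2. Versions, genome build, annotation and the strand setting in counting were not given in the sources used here. A second deposited table lists the authors' called genes, each with its log2 fold change, SE, Wald score, p-value and adjusted p-value, per the file headers. All deposited values (100%) were whole multiples of 1 step per library to within 0.01 of a read, so whole reads were recovered.

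The main test was limma 3.58.1 (R 4.3.3) on log2(value + 1) with an intensity trend, over 10987 genes that reached 10 in 3 or more libraries, with Benjamini-Hochberg adjustment at 0.05. edgeR 4.0.16 (quasi-likelihood) and DESeq2 1.42.0 on the recovered reads, other pseudocounts (0.5 and 8), no filter or a filter of 50, equal library totals, TMM factors, a replicate block, the form of the library names, library weights, a fibroblast covariate and leaving out each library were alternatives. The limma, edgeR and DESeq2 steps were tested on simulated data. An exact permutation test of 3 against 3 cannot go below 0.1 and was not used. The members and gene lists were chosen with earlier results of these data known. Genes with per-library values are Lef1, members called by any of the 3 tools, the 2 tested members of smallest p in each role, and in the further lists the called genes and the gene of smallest p in each list; every other gene with values was chosen after they were seen. Promoter windows and motif searches used RefSeq (GRCm38.p6), and positions GENCODE M21.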

Additional observations from a re-analysis of the deposited data

How the results depend on the processing

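No count and none of the genes named by the rule, nor Fzd3 and Ppard, reversed direction under the alternatives run. Among all tested members, 14 had log2 fold changes of both signs over limma, edgeR, DESeq2 and the fits without 1 library, among them Axin2, Ctnnb1, Dvl2 and Fzd2, and 0 of the 14 were called by any of these tools. Over the named genes, 380 of the alternative values kept their side of the threshold, 22 lost the call and 9 gained it. The number of members lower in KO, 2 in the fit as described, was 1 with equal library totals, 1 with the replicate block, 1 with the form of the library names as a term, 1 by edgeR and 4 with library weights, and ran from 1 to 2 when 1 library was left out. The members gained with weights were Fzd6 (limma adjusted p = 0.0302) and Lrp5 (0.0368). The number of members higher in KO, 0 as described, was 1 with the fibroblast covariate, which is Sostdc1 (limma adjusted p = 0.0434). That covariate is a mean over 4 markers whose log2 fold changes had both signs (-2.06 for Dcn and 1.01 for Col1a1). Sfrp1 had limma adjusted p = 0.0573 with the replicate block. Of the further WNT pathway genes, the 1 called lower became 0 with a pseudocount of 8, with no filter, with equal totals, with TMM factors, with the replicate block, with the name form and with the fibroblast covariate, and 0 in each fit without 1 library. The 2 called higher became 5 with library weights and 5 by DESeq2. Over all genes, the 64 called lower became 21 with the name form, 273 with weights and 152 by DESeq2, and 16 to 52 without 1 library. The 134 called higher became 61 with the name form, 317 with weights and 216 by DESeq2, and 40 to 129 without 1 library. Fits without 1 library have fewer samples, and the cause of the other shifts was not tested.

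The replicate numbers were not taken as pairs: deviations of libraries with the same number correlated at -0.254, 0.0257 and 0.278 over genes, and the replicate block changed no other call of a member. Between libraries of different number the correlations ran from -0.403 (KO replicate 2 and WT replicate 3) to 0.414 (KO replicate 2 and WT replicate 1). The median log2 fold change of all genes was -0.045 with equal library totals and nearer 0 in every other fit run. With 3 mice per genotype, low members such as Axin2 and Ctnnb1 had standard errors of 0.57 and 0.47 on the log2 scale.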

Other observations

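The hair-type keratins, a group in which Lef1 is known to act, were measured alongside. Of the 12 genes of the papilla and hair-type keratin list found in the table, 1 rose in KO, 0 fell and 11 did not pass the test. Over all genes, 1.22% were called higher and 0.583% lower. The median log2 fold change of the list was 0.42, and 11 of 12 were positive, beside 5394 of the 10987 genes tested. The called gene was Krt33b, a hair keratin (limma adjusted p = 0.0404), which lost its call in each of the 6 fits without 1 library (adjusted p 0.0583 to 0.149), by edgeR (0.0515), with the replicate block (0.0697) and with the name form (0.102). DESeq2 called 4 genes of the list higher, beside 1.97% of all genes. The list summed to 87715 to 102573 normalised read counts in KO and 49462 to 77545 in WT, mostly Krt36 and Krt81 in every library. Hoxc13, a regulator of hair keratins, had 362, 419 and 301 normalised read counts in KO and 382, 277 and 308 in WT (limma adjusted p = 0.791 at a log2 fold change of 0.16, SE 0.20). Foxn1, which acts in the hair shaft, had 264, 334 and 279 in KO and 326, 258 and 294 in WT. The groups overlapped in both genes, which were chosen from the list after their values were seen.

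A pair of WNT and BMP response genes varied widely between mice of the same genotype. Bambi, a membrane inhibitor of BMP signalling, had 41.2, 446 and 83.9 normalised read counts in KO and 846, 358 and 99.3 in WT (log2 fold change -1.42, SE 0.84, limma adjusted p = 0.525). Msx2, a homeobox gene of ectodermal organs, had 3.25, 25.9 and 7.62 in KO and 96.1, 25.3 and 5.22 in WT (log2 fold change -1.34, SE 0.91, limma adjusted p = 0.589). WT replicate 1 was highest for Bambi and Msx2, as it was for Fzd1, and these genes were chosen after their values were seen.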
